A study of Pongo abelii with 6 samples.

Results

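The transcripts described here are the 29 entries that the authors' table marks as HERV, out of 58409 transcripts measured in orangutan induced pluripotent stem cells, which are made from adult cells and resemble those of the early embryo. They were chosen by the table's own HERV mark and by no measured value, though earlier results of these data were known at the time. Of the 29, 18 carried RNA at 0.01 TPM or more in all 6 libraries, 9 were listed at 0 throughout, and 2 had traces of at most 3.45e-08 TPM. A single entry, number 23, held 20.9% to 35.9% of the summed HERV TPM. As deposited, most of the rest varied together from library to library. The correlation between entries fell once each library was divided by its typical level, or when Dokana replicate 3 was left out. Of the 6 entries abundant enough to be tested 0 were called different between the lines, where 1.03% of all tested transcripts were.

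The study has 3 libraries of each of 2 Pongo abelii lines, Dokana and Djasinga, made from total RNA depleted of ribosomal RNA. All cells were grown in iPS-Brew medium with 1 uM IWR1, an inhibitor of Wnt signalling, and 0.5 uM CHIR, an activator of it, on a Matrigel coating and over 3 passages in a row. No animal's age, no clone number and no reprogramming method is given in these sources, and the treatment field calls the cells differentiated where titles and growth protocol describe stem cells. The genotype field and part of the extraction protocol name small RNA, while titles, molecule field and the rest of that protocol name total RNA, which is followed here. The series' design text calls passages technical replicates, while the titles call the libraries biological replicates. The design text is followed here, so SDs and p-values measure the spread between passages of a line and not between animals. TPM, a share of each library's RNA corrected for transcript length, keeps no read depth, so depth is unknown. Of 9 pluripotency markers, 6 were paired with a transcript, and they summed to 269.5 to 462.1 TPM, with CD24 the highest at a mean of 141.8 TPM. POU5F1, TDGF1 and DPPA4 had no paired transcript. Those of endoderm (4 paired) and trophoblast (4 paired) summed to at most 0.142 and 0.108 TPM and those of mesoderm (5 paired) to at most 2.25 TPM. Those of neuroectoderm (4 paired) summed to 11.5 to 29.6 TPM, with OTX2, which stem cells also express, the highest, and those of fibroblasts (4 paired) to 37.0 to 82.5 TPM, with THY1, a surface protein that stem cells also carry, the highest at a mean of 51.0 TPM. The fibroblast sum was not THY1 alone: TWIST2, COL1A2 and PDGFRA had means of 4.51, 3.11 and 0.265 TPM. All marker sums count paired RefSeq transcripts only and leave out assembled StringTie transcripts, so they can miss part of a gene's RNA.

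HERV stands for human endogenous retrovirus, a remnant of a retrovirus that entered the germ line of an ancestor and was passed on with the genome. A complete copy has a long terminal repeat at each end, which holds a promoter, and between the repeats the remains of the viral genes. HERVH, the group named in the title of the series, is known for being transcribed in human pluripotent cells from its LTR7 repeat, where pluripotency factors bind. In most cells such elements are silenced by KRAB zinc finger proteins, which recruit the corepressor TRIM28 and the histone methyltransferase SETDB1, and by DNA methylation. The table gives each entry an ID of the form herv.orang_00000023 (here, entry 23) and no retroviral group, position, strand or sequence, so none of the entries can be called HERVH here and none is shown by its sequence.

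In bulk RNA, fewer cells carrying a transcript and less of it per cell cannot be told apart. Entry 23 was the most abundant by far. In replicates 1, 2 and 3 of each line, the order used throughout, it had 8.42, 5.93 and 6.96 TPM in the Dokana libraries against 5.96, 5.50 and 3.54 TPM in the Djasinga libraries. Its lowest library was Djasinga replicate 3 and its highest Dokana replicate 1, and the lines overlapped. Its mean of 6.05 TPM lay at percentile 77.3 of the 31410 transcripts that reached 0.01 TPM in all libraries, while the other 17 entries lay at percentile 51.8 or below.

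Entries 5, 11, 3 and 22 followed, the only others above 1 TPM in all 6 libraries. Entry 5 had 2.34, 1.69 and 2.85 TPM in the Dokana libraries against 1.50, 1.78 and 1.80 TPM in the Djasinga libraries. Entry 11 had 1.96, 1.45 and 2.57 TPM in the Dokana libraries against 1.45, 1.65 and 1.76 TPM in the Djasinga libraries. In both, Dokana replicate 3 was the highest library, Dokana replicate 1 came next, and Dokana replicate 2 lay within the range of Djasinga or just below it. Entry 3 had 1.72, 1.36 and 2.30 TPM in the Dokana libraries against 1.31, 1.38 and 1.56 TPM in the Djasinga libraries. Entry 22 had 1.57, 1.07 and 2.26 TPM in the Dokana libraries against 1.06, 1.24 and 1.43 TPM in the Djasinga libraries. The order of the libraries was the same in these entries at the top, with Dokana replicate 3 followed by Dokana replicate 1.

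Entries 9 and 17 lay around 1 TPM. Entry 9 had 1.15, 0.915 and 1.52 TPM in the Dokana libraries against 0.874, 0.925 and 1.13 TPM in the Djasinga libraries. Entry 17 had 1.14, 0.968 and 1.52 TPM in the Dokana libraries against 0.910, 0.968 and 0.996 TPM in the Djasinga libraries. In Dokana the means of entries 5, 11, 3 and 22 (2.29, 1.99, 1.79 and 1.64 TPM) differed between neighbours by less than the SD of either over libraries (0.473 to 0.596 TPM), as did those of entries 9 and 17 (1.20 and 1.21 TPM, SDs 0.308 and 0.285). Within a library the order of the first 4 was the same in all 6, with entry 11 at 0.834 to 0.977 of entry 5 and at 1.07 to 1.20 times entry 3, and entry 22 at 0.791 to 0.984 of entry 3. Entry 23 lay apart from all others in every library.

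Entries 21, 6, 27, 7 and 14 completed the 12 highest, with means from 0.732 down to 0.557 TPM. Entry 21 had 0.787, 0.573 and 1.09 TPM in the Dokana libraries against 0.554, 0.662 and 0.726 TPM in the Djasinga libraries. Entry 6 had 0.815, 0.593 and 1.05 TPM in the Dokana libraries against 0.533, 0.652 and 0.678 TPM in the Djasinga libraries. Both showed the library order of the more abundant entries. Entry 27 had 0.682, 0.563 and 0.926 TPM in the Dokana libraries against 0.578, 0.620 and 0.591 TPM in the Djasinga libraries. Entry 7 had 0.618, 0.455 and 0.797 TPM in the Dokana libraries against 0.442, 0.515 and 0.538 TPM in the Djasinga libraries. Entry 14 had 0.529, 0.486 and 0.731 TPM in the Dokana libraries against 0.484, 0.533 and 0.578 TPM in the Djasinga libraries. In all 5, Dokana replicate 3 was the highest library, and Dokana replicate 2 lay within the range of Djasinga or below it.

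The other 6 detected entries, 24, 1, 16, 29, 28 and 10, had means from 0.431 down to 0.112 TPM. Entries 2, 4, 8, 12, 13, 15, 20, 25 and 26 were listed at 0 in all 6 libraries. Entries 18 and 19 had a value above 0 in 3 and 2 libraries, and values above 0 but under 0.0001 TPM occurred at 673 to 1156 transcripts of a library. The share at 0 was 31.0% of the HERV entries, against 4.20% of 14128 assembled StringTie transcripts, 16.6% of 43705 RefSeq transcripts, 42.8% of 547 transcripts with other identifiers and 13.9% of the whole table. With 62.1% detected in all libraries, HERV entries lay between the RefSeq (47.0%) and the StringTie transcripts (76.1%), and above those with other identifiers (17.9%). Their median of 0.690 TPM, taken over the detected entries, was below that of detected RefSeq (1.45 TPM) and StringTie transcripts (2.54 TPM). Retroviral copies resemble each other, and the quantification could have split reads among entries or assigned them to 1 copy, so the level of a single entry, zeros included, is uncertain.

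**Figure D1:**
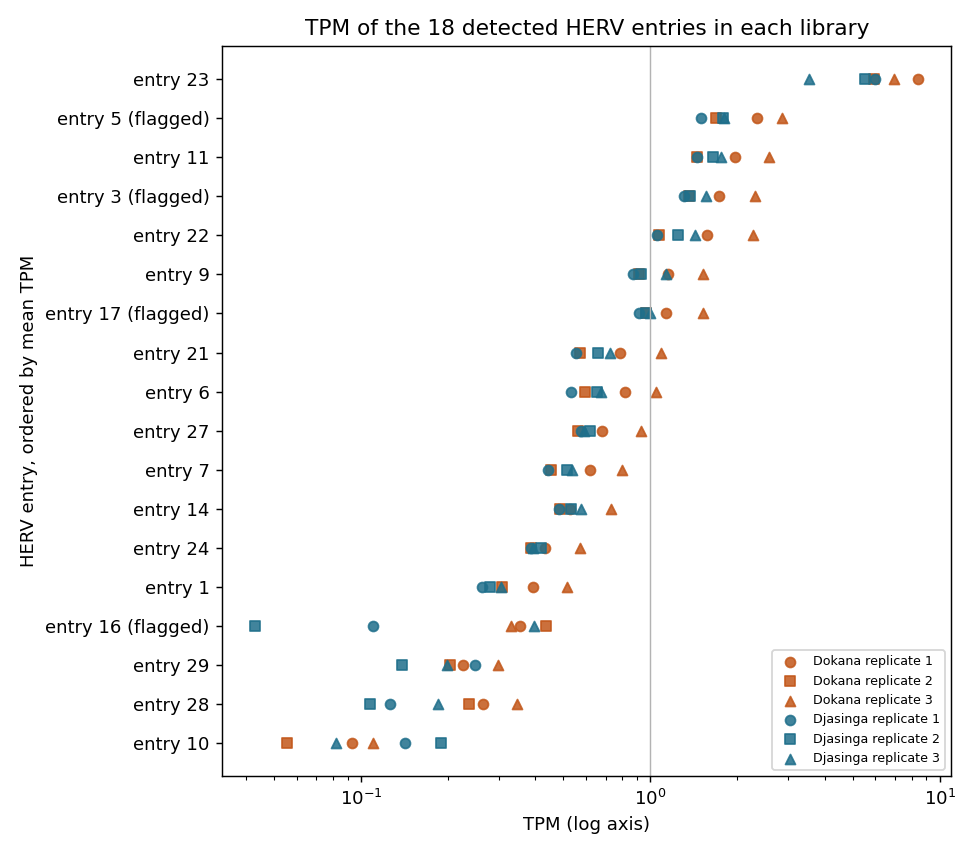
TPM (log axis) of the 18 detected HERV entries, ordered by mean, in 3 Dokana (orange) and 3 Djasinga (blue) libraries, with a line at 1 TPM; the 11 entries at 0 or trace levels are not drawn. Entry 23 lies apart at 3.54 to 8.42 TPM, and Dokana replicate 3 is the highest library for 15 of the 18 entries.

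The authors' second mark, for expressed transcripts, did not follow these levels. It was set for 5 of the 29 entries: 2, 3, 5, 16 and 17. Whether and how often it was set for other transcripts was not counted, so 5 of 29 cannot be set against the table. Entry 2 was listed at 0 in all 6 libraries, and entry 16 ranked fifteenth of 29 at a mean of 0.278 TPM. Entry 23 carried no such mark, and neither did entries 9, 11 and 22, although all 4 had a mean above 1 TPM. Of the 14 unmarked detected entries, 11 had a higher mean than entry 16. The median of the means was 1.34 TPM over the 4 marked detected entries and 0.610 over the 14 unmarked ones. No TPM threshold in these libraries separates the marked from the unmarked entries, and how the mark was set is not stated in those sources. The marked entries summed to 5.67 ± 1.28 TPM in Dokana and 4.25 ± 0.468 TPM in Djasinga, and the unmarked ones to 17.0 ± 3.36 and 12.9 ± 0.677 TPM (SD, n = 3).

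Summed over all 29 entries, HERV RNA had 23.5, 17.7 and 26.7 TPM in the Dokana libraries against 16.9, 17.6 and 16.9 TPM in the Djasinga libraries. Every Dokana library was above every Djasinga library, but Dokana replicate 2 (17.68 TPM) only just cleared Djasinga replicate 2 (17.60 TPM). The means were 22.6 ± 4.59 and 17.1 ± 0.400 TPM (SD, n = 3), a log2 ratio of -0.40, for which no test is given because it sums chosen members. Among markers of other cells, the neuroectoderm sum was also highest in Dokana replicates 3 and 1, at 28.7, 13.2 and 29.6 TPM in the Dokana libraries against 11.5, 24.0 and 16.9 TPM in the Djasinga libraries. Most of it was OTX2 (21.7, 8.74 and 23.04 against 7.14, 17.5 and 12.2 TPM), while POU3F1 was highest in Djasinga replicate 2 (5.89 TPM), SOX1 in Djasinga replicate 1 (1.83 TPM), and PAX6 at or near 0. The fibroblast sum was highest in Dokana replicate 2, at 62.2, 82.5 and 66.1 TPM in Dokana against 68.1, 37.6 and 37.0 TPM in Djasinga. The part of these cells in the HERV levels was not tested. The TPM scale itself also differed between the libraries. One assembled StringTie transcript without a symbol took 16.9%, 28.2% and 20.6% of the TPM of Dokana replicates 1, 2 and 3 and 26.7%, 37.7% and 42.4% of those of Djasinga. This share was lowest in Dokana replicate 1, while the HERV sum was highest in Dokana replicate 3. The median-ratio size factor, the typical level of all tested transcripts in a library, was 1.11, 0.992 and 1.37 in Dokana and 0.940, 0.881 and 0.872 in Djasinga. Divided by these factors, the HERV sum was 21.2, 17.8 and 19.5 in Dokana and 18.0, 20.0 and 19.4 in Djasinga. The lines then overlapped, with means of 19.5 ± 1.68 and 19.1 ± 1.00 and a log2 ratio of -0.029, smaller than the spread within a line. With the most abundant transcript left out and the rest rescaled, the means were 28.9 ± 4.55 and 26.9 ± 3.32 TPM and again overlapped.

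**Figure D2:**
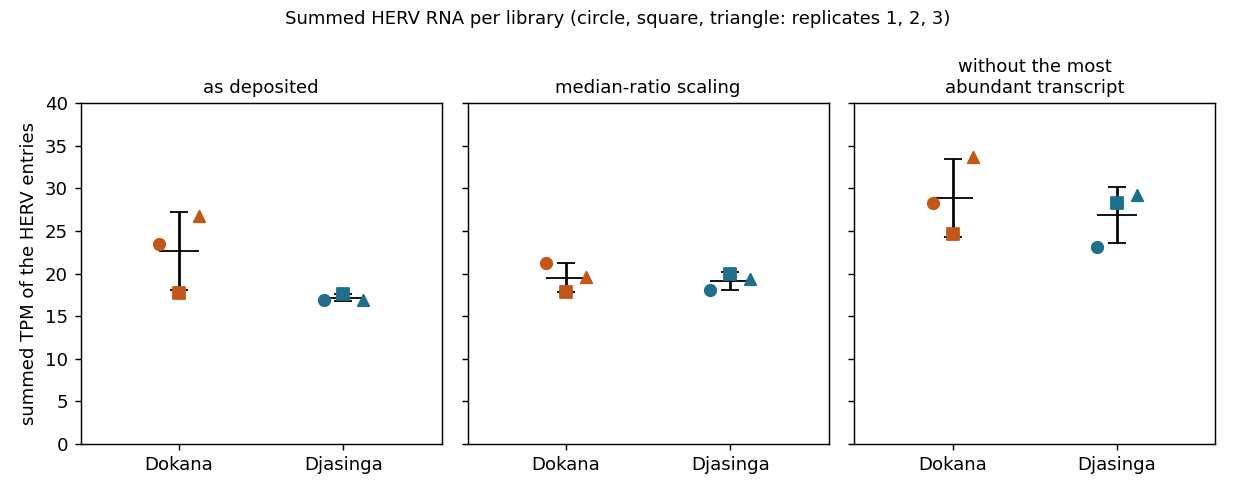
Summed TPM of the HERV entries in each library, as deposited, after median-ratio scaling, and without the most abundant transcript of the table; bars are the mean and SD of 3 libraries of a line. As deposited the lines average 22.6 and 17.1 TPM, and after median-ratio scaling 19.5 and 19.1.

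Tested entry by entry, no HERV transcript was called different between the lines. The fit was limma on log2(TPM + 1) over the 22561 transcripts that reached 1 TPM in 3 or more libraries. Of the 29 entries 6 passed this filter, entries 23, 5, 11, 3, 22 and 9, which held 70.3% of all HERV TPM. At an adjusted p under 0.05, 0 of these 6 passed, and 0 had an unadjusted p under 0.05. Over all tested transcripts 1.03% were called (232, 152 with the replicate number as a block, and 37 to 186 with 1 library left out, the fewest without Dokana replicate 3), and 14.5% had an unadjusted p under 0.05. At these shares 0 of 6 is near the background and is no result particular to the entries. With all libraries the largest log2 difference (Djasinga minus Dokana) belonged to entry 23, at -0.45 (SE 0.24, 95% interval -0.997 to 0.10, limma adjusted p 0.394). That of entry 5 was -0.28 (95% interval -0.75 to 0.20, limma adjusted p 0.493), and that of the other 4 lay between -0.21 and -0.14. Without Djasinga replicate 3 entry 23 was at -0.26, closer to 0 than entry 5 (-0.31) and entry 22 (-0.27), and without Dokana replicate 3 entry 5 was at -0.16 and entry 22 at -0.045. The median of the 6 was -0.20, beside -0.27 for all tested transcripts, so their shift was close to that of the table. After median-ratio scaling entry 23 was at -0.15 (95% interval -0.66 to 0.36), and the other 5 lay between -0.037 and 0.058.

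**Figure D3:**
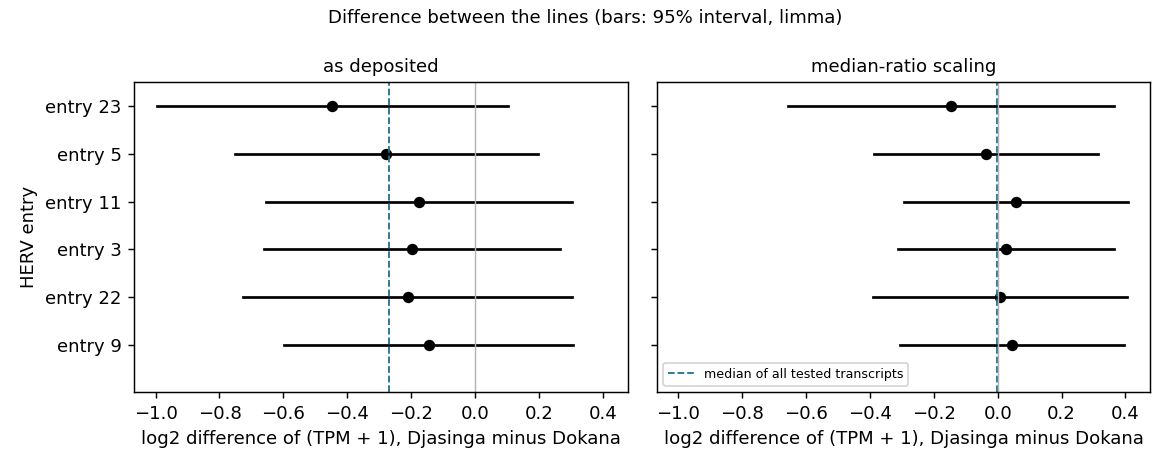
Log2 difference of TPM + 1, Djasinga minus Dokana, for the 6 HERV entries that could be tested, with 95% intervals from limma, as deposited and after median-ratio scaling; the dashed line is the median of all tested transcripts. All 12 intervals include 0, and the deposited differences lie around the median of -0.27.

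Across the 18 detected entries, 17 had the lower mean in Djasinga as deposited and entry 10 the higher one. The median log2 ratio of line means was -0.34, against -0.33 for all 31410 detected transcripts, of which 78.6% were lower. After median-ratio scaling 6 entries had the lower and 12 the higher mean in Djasinga, with a median of 0.049, against 0.041. In 2 of the 18 entries, 1 and 28, the lines did not overlap as deposited, both lower in Djasinga. Among all detected transcripts 19.4% were lower in this way and 1.85% higher, so the entries' share was not above that of the table. After scaling, entry 28 was still lower without overlap and entry 10 was higher without overlap, where the shares over all detected transcripts were 6.49% lower and 7.34% higher. With the most abundant transcript left out instead, entry 10 alone was without overlap, and the lines overlapped in entry 28. On that scale the share over all detected transcripts was not counted, so this is no result particular to entry 10.

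The entries that left the common course were mostly those of low level. Entry 28 had 0.263, 0.236 and 0.346 TPM in the Dokana libraries against 0.126, 0.108 and 0.184 TPM in the Djasinga libraries. Its Dokana libraries were all above its Djasinga libraries, with means of 0.282 ± 0.0574 and 0.139 ± 0.0400 TPM (SD, n = 3). It was below the filter, and with no filter on low values its log2 difference was -0.17 (SE 0.052, limma unadjusted p 0.0200, adjusted p 0.384). In that fit 1 of 20 HERV entries had an unadjusted p under 0.05, beside 10.7% of all 50300 transcripts, so this is no result particular to the entry. With a filter of 0.1 TPM in 3 libraries the same difference had an unadjusted p of 0.102 (limma adjusted p 0.481). Entry 10 had 0.0928, 0.0555 and 0.110 TPM in the Dokana libraries against 0.142, 0.189 and 0.0821 TPM in the Djasinga libraries. Djasinga replicates 1 and 2 were its highest libraries, while Djasinga replicate 3 lay within the Dokana range. Entry 16 had 0.356, 0.437 and 0.329 TPM in the Dokana libraries against 0.110, 0.0432 and 0.395 TPM in the Djasinga libraries. Djasinga replicates 1 and 2 were low and Djasinga replicate 3 was as high as Dokana, a 10.1-fold range over the libraries that was the widest of the 18 entries. Entry 16 thus went the opposite way to entry 10 in the same pair of libraries.

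**Figure D4:**
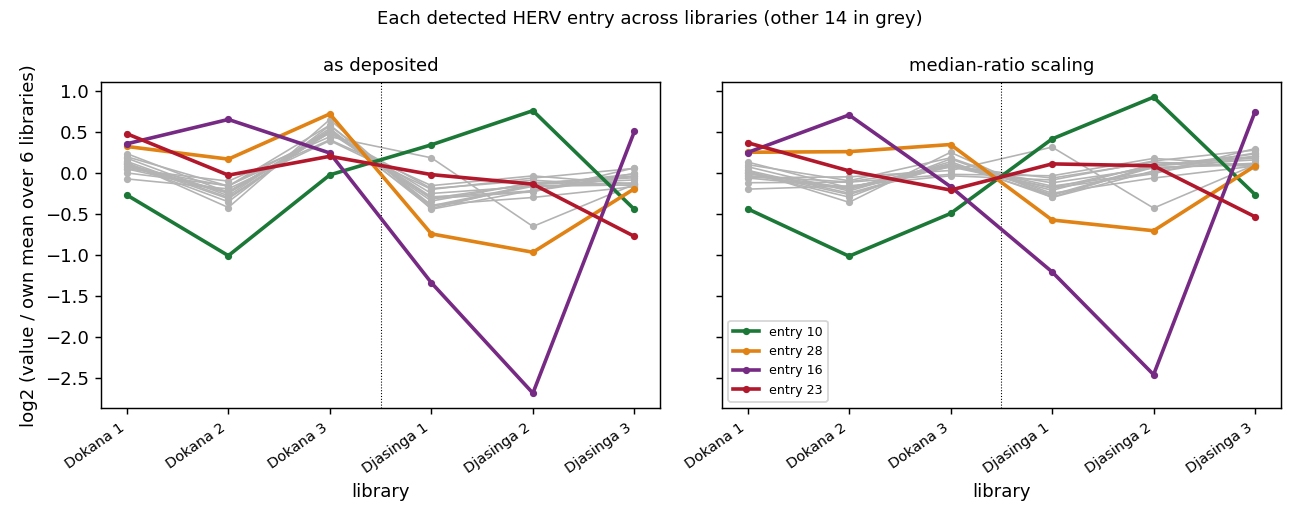
Level of each of the 18 detected HERV entries in each library relative to its own mean over the 6 libraries (log2 scale), as deposited and after median-ratio scaling, with entries 10, 16, 23 and 28 in colour. The grey entries peak together in Dokana replicate 3 as deposited and vary less after scaling, while entry 16 drops in Djasinga replicates 1 and 2 where entry 10 is highest. After scaling 9 of the 18 entries are highest in Djasinga replicate 3 and 3 in Dokana replicate 3.

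Some pairs of the other entries kept their ratio within a narrow range. The coefficient of variation of the 18 detected entries over the 6 libraries (SD as a percentage of the mean) had a median of 24.8% as deposited and 13.1% after median-ratio scaling. All detected transcripts had medians of 32.5% and 28.5%. After scaling, 12 of the 18 entries varied by less than 15%, as did 16.9% of all detected transcripts. The steadiest was entry 17, at 7.05%, and the least steady entry 16, at 61.6%. Entry 11 was 3.17 to 3.29 times as abundant as entry 7 in every library, and entry 22 1.87 to 2.07 times as abundant as entry 21. Entry 6 held 0.348 to 0.377 of the level of entry 5. Entries 23 and 29 did not keep such ratios: entry 23 was 3.12 to 7.32 times as abundant as entry 9, and entry 29 held 0.213 to 0.466 of the level of entry 6. Pairs among the remaining entries could be looser too, with entry 14 at 1.35 to 1.91 times entry 1 and entry 22 at 3.50 to 4.69 times entry 1. The pairs given here were picked after their values were seen. How many pairs of all transcripts are as tight was not counted.

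Pairwise correlations over the libraries describe the same pattern. They rest on 6 libraries of 2 lines, which share the TPM scale, so no p is given. Over the 153 pairs of detected entries the median Pearson's r was 0.90, and 50.3% of pairs exceeded 0.9, against a median of 0.29 and 3.34% of pairs among all detected transcripts. Without Dokana replicate 3, the library in which most entries peak, the median fell to 0.62, and it lay between 0.91 and 0.93 without any 1 of the other libraries. Each of 13 entries (1, 3, 5, 6, 7, 9, 11, 14, 17, 21, 22, 24 and 27) exceeded an r of 0.9 with at least 10 others, a group read from these values and not tested. Their levels spanned 1.47-fold to 2.13-fold over the libraries as deposited and 1.18-fold to 1.52-fold after scaling.

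The size factor of a library moved with the entries. Its median r with a detected entry was 0.88, against 0.61 for all detected transcripts. After median-ratio scaling the median r between entries fell to 0.43 and 17.0% of pairs exceeded 0.9, where all detected transcripts had a median near 0 (-0.0025) and 1.15% of pairs. Among the 13 entries listed before, picked by their r as deposited, the median after scaling was 0.855 and the lowest value -0.011. Entries 3, 6, 7, 11, 17, 21 and 22 still exceeded 0.9 with at least 6 others each, and the lowest of their 21 mutual values was 0.91. This group too was read from these values and not tested, and picking entries by a high r favours a high minimum. Entry 23 took no part: its median r with the other entries was 0.42 as deposited and -0.44 after scaling. Entries 10 and 16 had an r of -0.97 with each other as deposited, the lowest of the 153 pairs, and -0.86 after scaling. After scaling the lowest r was that of entries 10 and 28, at -0.93. Both pairs were picked by these values. Whether shared reads between similar copies hold the ratios of some entries within narrow ranges was not tested, since the entries come with no sequence here.

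**Figure D5:**
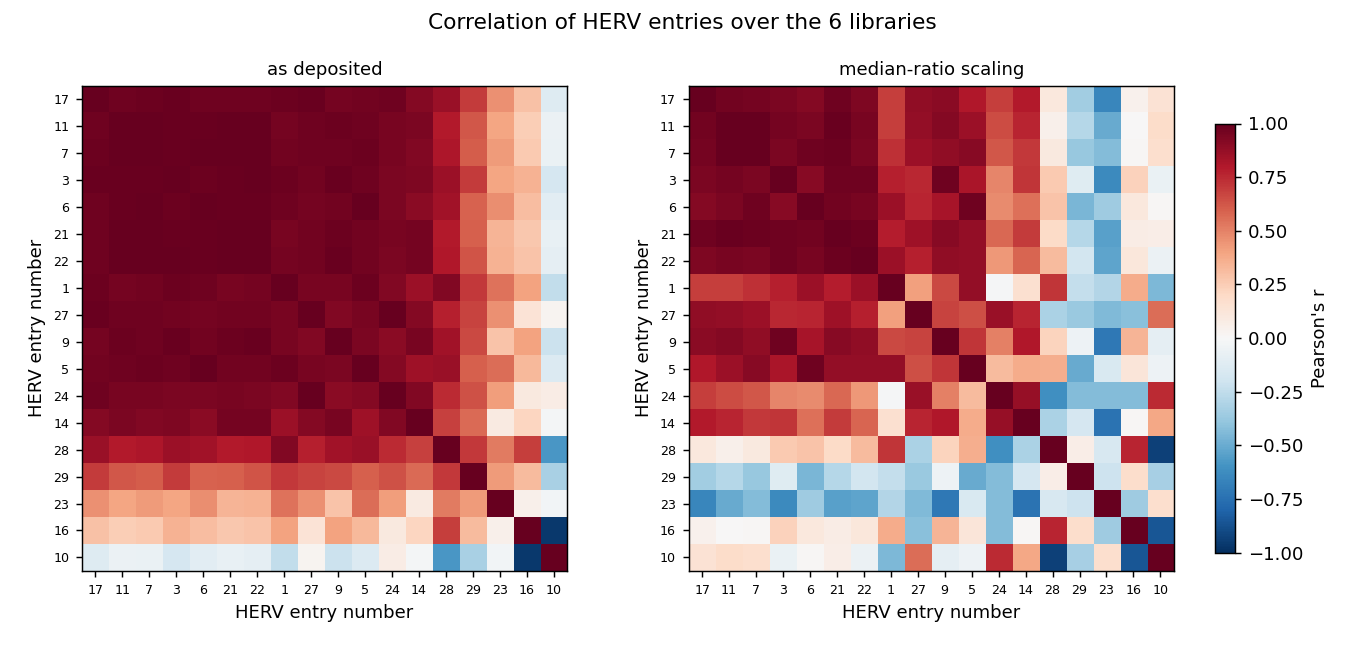
Pearson's r between the 18 detected HERV entries over 6 libraries, as deposited and after median-ratio scaling, with entries in the order of their median r as deposited. A block of 13 entries lies near 1 as deposited, and entries 10, 16, 23, 28 and 29 lie outside. Within it 7 entries keep values above 0.91 among each other after scaling; both groups were picked by these same values.

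Genes that act on endogenous retroviruses showed no call between the lines either. Of 97 genes on 7 lists (regulators and targets of HERVH, silencing, zinc fingers, DNA methylation, restriction factors and genes derived from retroviruses), 55 were paired with a transcript and 41 could be tested. Gene levels here sum the paired RefSeq transcripts only and leave out assembled StringTie transcripts, so they are partial. At an adjusted p under 0.05, 0 of the 41 were called (limma on gene sums, with 0.352% of 6255 genes called, which is 22, and 5 with the block), and 8 had an unadjusted p under 0.05, all lower in Djasinga, beside 13.9% of all genes in that direction. After median-ratio scaling 1 of the 41 had an unadjusted p under 0.05, lower in Djasinga, beside 3.96% of all genes in that direction. The median difference of the 41 was -0.39 as deposited and -0.096 after scaling, and that of all genes -0.29 and -0.0097.

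Among regulators, NANOG, a pluripotency factor that binds LTR7 in human cells, had 56.7, 98.8 and 79.2 TPM in the Dokana libraries against 73.0, 31.6 and 45.3 TPM in the Djasinga libraries. Its libraries did not follow the order of the HERV entries, since Dokana replicate 2 was its highest, where 17 of the 18 detected entries had their lowest Dokana value. SOX2, its partner, had 55.7, 40.6 and 57.5 TPM in the Dokana libraries against 33.8, 44.0 and 34.4 TPM in the Djasinga libraries. KLF4 and TFCP2L1 (also called LBP9), both tied to HERVH transcription in human cells, had means of 0.680 and 0.340 TPM over all libraries and were below the filter. Of the 15 regulators 7 were tested, and 0 passed in either direction (smallest limma adjusted p 0.346, for SOX2).

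Silencing genes differed widely in level. CBX3, a reader of the histone mark that SETDB1 writes, was the highest of its list at 127, 96.1 and 165 TPM in the Dokana libraries against 94.1, 90.6 and 99.6 TPM in the Djasinga libraries. SETDB1 had 4.19, 4.10 and 7.78 TPM in the Dokana libraries against 3.08, 4.46 and 3.27 TPM in the Djasinga libraries. Both were highest in Dokana replicate 3, as were 15 of the HERV entries and the size factor. Of 15 silencing genes tested 0 passed, and the smallest adjusted p was that of HDAC2, a histone deacetylase (log2 difference -0.76, SE 0.21, limma adjusted p 0.283, and -0.46 and 0.403 after scaling), named after its value was seen. TRIM28 had no transcript paired with its symbol and was not analysed here.

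DNMT3B, which sets new DNA methylation, had 67.2, 61.4 and 101 TPM in the Dokana libraries against 35.8, 49.1 and 64.1 TPM in the Djasinga libraries, and was the highest of its list. DNMT1, which maintains methylation, had 21.9, 16.7 and 29.7 TPM in the Dokana libraries against 13.4, 18.6 and 20.7 TPM in the Djasinga libraries. The lines overlapped in both, and of 5 methylation genes tested 0 passed (smallest limma adjusted p 0.326, for TET1). Of 9 restriction factors tested 0 passed, TRIM5, which binds retroviral capsids, being the highest over all libraries at 38.3 ± 3.48 and 28.3 ± 10.6 TPM (SD, n = 3), beside BST2, which tethers virus particles to the cell, at 27.1 ± 5.12 and 28.4 ± 20.8 TPM. ADAR, which edits double-stranded RNA, was at 5.76 ± 2.23 and 5.89 ± 1.21 TPM. Only 3 of 18 zinc finger genes were paired and 2 tested, ZNF461 at 1.89 ± 0.367 and 1.30 ± 0.832 TPM and ZNF382 at 1.91 ± 0.215 and 1.25 ± 0.959 TPM (SD, n = 3).

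Among genes derived from retroviruses or retrotransposons, PEG10, a placental gene of retrotransposon origin, had 8.14, 7.14 and 10.9 TPM in the Dokana libraries against 5.96, 8.95 and 5.15 TPM in the Djasinga libraries, and ERVW-1, the envelope gene known as syncytin-1, averaged 2.53 ± 0.748 and 2.36 ± 0.225 TPM (SD, n = 3). Of 3 such genes tested 0 passed (smallest limma adjusted p 0.326, for ERVMER34-1). Of 10 transcripts known to start in or lie next to HERVH copies in human cells, 4 were paired and 0 could be tested. The paired transcripts of ABHD12B, HHLA1 and DPPA5 were listed at 0 in all libraries, and that of SCGB3A2 had a mean of 0.0589 TPM. ESRG had no paired transcript and was not analysed here. Assembled transcripts of these genes were not counted, so a 0 does not show that a gene is silent.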

How the data were processed

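Per the submitters' processing notes, the tools were STAR, StringTie, Trimmomatic 0.39 and FastQC 0.11.9, without their roles; no source used here names the quantifier, genome build or annotation. Per the file headers, the authors deposited TPM for each transcript, and each library sums to the same total. The flags for HERV and for expressed transcripts (0 or 1) are marks of another kind, deposited by the authors. RefSeq transcripts were given symbols from RefSeq's table for NHGRI_mPonAbe1-v2.0, matched without accession version, which named 22113 of 43705 RefSeq transcripts (50.6%). TPM was summed per symbol. The 14128 StringTie transcripts got no symbol, although they held 717167.5 to 812330.3 TPM of a library, against 186629.8 to 281369.3 for RefSeq transcripts. Levels of genes and marker lists are therefore partial sums that leave out any assembled transcript of the gene.

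The test was limma-trend on log2(TPM + 1), Djasinga minus Dokana, on transcripts or genes reaching 1 TPM in 3 or more libraries; p-values were adjusted by Benjamini-Hochberg over all of them, and 0.05 was the threshold. This scale understates fold changes of low transcripts. Named were the 12 entries of highest mean, any entry called, fixed genes and the highest member of each list; entries 10, 16 and 28, the limit of 0.01 TPM and further genes were chosen after values were seen. Members and lists were chosen with earlier results of these data known. The replicate number stands under a batch tag in the labels. It was taken as a pairing in the block alternative only, and the main fit left it out. Deviations of same-numbered libraries from the line mean correlated by -0.108, -0.0995 and 0.167, which shows no common pairing. The fit was tested on simulated data. Alternatives covered the replicate block, each library left out, scaling, the pseudocount and the filter. Fits were run in R 4.3.3 (limma 3.58.1), and all else in Python 3.11.15 (numpy 2.4.6, pandas 2.3.3, matplotlib 3.10.9).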

Additional observations from a re-analysis of the deposited data

How the results depend on the processing

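The count of HERV entries called was 0 in every alternative run, as was the count of genes called on the 7 lists. With the replicate block the 6 tested entries kept their differences (adjusted p 0.471 for entry 23), and the block changed no call of an entry or a named gene. For the whole table the block called 152 transcripts and 5 genes in place of 232 and 22. A pseudocount of 0.1 gave 107 transcripts and 10 genes, and no filter gave 99 transcripts. Leaving out 1 library gave 37 to 186 transcripts and 4 to 22 genes: without Dokana replicates 1, 2 and 3 there were 70, 46 and 37 transcripts and 8, 6 and 7 genes, without Djasinga replicates 2 and 3 150 and 147 transcripts, and without Djasinga replicates 1 and 3 13 and 4 genes. As deposited 65 of the 232 transcripts were higher in Djasinga, and after median-ratio scaling 72 of 178.

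The log2 ratio of summed HERV TPM went from -0.40 to -0.029 after median-ratio scaling, -0.10 without the most abundant transcript and 0.030 after scaling without entry 23, and to between -0.55 (without Dokana replicate 2) and -0.26 (without Dokana replicate 3) when 1 library was left out. The median r between entries was 0.714 by Spearman and 0.431 after scaling, and 0.621 (without Dokana replicate 3) to 0.931 when 1 library was left out. The sign of uncalled differences turned in 10 of 75 values of entries. After median-ratio scaling and quantile normalization entry 3 was at 0.027 and 0.026, entry 9 at 0.046 and 0.073, entry 11 at 0.058 and 0.049 and entry 22 at 0.0074 and 0.017; without the most abundant transcript entries 9 and 11 were at 0.0098 and 0.013. In 3 of 130 values of named genes it turned too: DNMT1 was at 0.010 after quantile normalization, and ADAR, at 0.070 with all libraries, was at -0.21 without Dokana replicate 1 and -0.052 without Djasinga replicate 2, in a range of -0.21 to 0.295 without 1 library. Depth is unknown, so the precision of entries under 1 TPM is unknown too.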
